A study of Zea mays subsp. mays with 2 samples.

Results

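Of the 9080 peaks that the authors called for the maize transcription factor Opaque11 (O11), 816 were low sites standing alone in the interior of a chromosome. They were chosen by 3 limits. No other summit lay within 10 kb on the same chromosome, the pileup (the reads covering the summit) was under 20, and the summit lay from 20% to 60% of the chromosome's span, taken as the length up to the end of its last peak. They are called interior sites here. The 2460 sites that met the limits on distance and pileup outside that zone, in the first 20% and the last 40% of the span, are called outer sites. Both come from the 8967 peaks on chromosomes 1 to 10.

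The immunoprecipitations were made from endosperm of kernels harvested 15 days after pollination, with a rabbit antibody raised against the whole O11 protein. The sample was wild type (labelled wildtype) and its negative control was the homozygous mutant, labelled mutant (o11/o11), which has no O11 protein. There was 1 library of each genotype, the labels do not say how many ears or kernels went into it, and no column of the list names a library. Values are read as wild type over mutant, they carry no replicate error, and the depth of either library is unknown.

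O11 belongs to the basic helix-loop-helix family, whose members bind DNA as dimers at short motifs known as E-boxes. It acts in the endosperm, the tissue that stores starch and zein proteins in the maize kernel. Most maize genes lie toward the chromosome ends, while the interiors around the centromeres are poorer in genes and rich in transposable elements. The sites below were not matched to genes or to sequence, since no genome was used here. The only hint of the build of the list is the tag v3 in its peak names, whose meaning is not given.

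The choice of sites used the list's own pileups, distances and positions, and the interior was picked because it was sparse in this list. Length, fold and background come from the same pair of libraries. All differences between interior and outer sites are therefore given as descriptions, with no test. Intervals are at the 95% level, cover counting error only, and treat sites as independent, which neighbours on a chromosome need not be.

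Solitary low sites were sparser in the interior than outside it. The interiors of the 10 chromosomes measured 822.5 Mb in all and held 0.992 such sites per Mb (exact Poisson interval 0.925 to 1.06). The outer parts measured 1234 Mb and held 1.99 per Mb (1.92 to 2.07). The ratio of interior over outer density was 0.498 (exact interval 0.459 to 0.539).

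Every kind of peak was sparser in the interior, but not to the same degree. Solitary peaks with a pileup of 20 or more had a ratio of 0.571 (0.516 to 0.630), an interval that overlaps that of the low ones. Peaks with another summit within 10 kb had a ratio of 0.300 (0.275 to 0.327). Solitary low sites thus made up 41.2% of the 1980 interior peaks (Wilson interval 39.1 to 43.4%), against 35.2% of the 6987 outer peaks (34.1 to 36.3%). A summit is more likely to stand alone where summits are sparse, so this shift toward solitary sites is in part built into the rule.

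**Figure D1:**
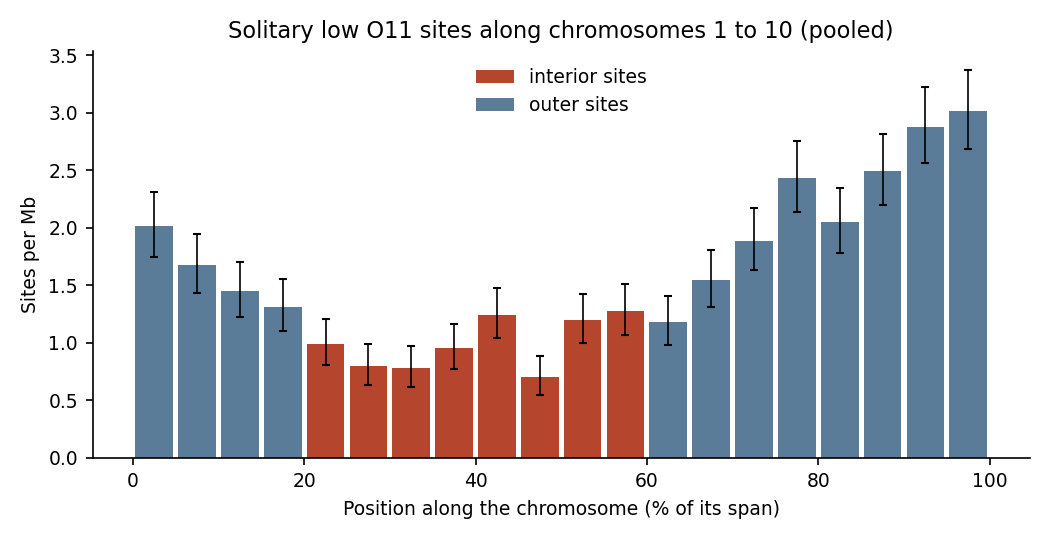
Solitary low O11 sites per Mb in steps of 5% of the chromosome span, pooled over chromosomes 1 to 10, with exact Poisson 95% intervals; red bars are interior sites and blue bars are outer sites. The lowest bar, 0.700 per Mb, lies in the interior from 45 to 50% of the span, and the highest, 3.02 per Mb, at the far end.

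Within the interior the sites were unevenly placed. The zone from 20 to 40% of the span held 362 of them, 0.880 per Mb (0.792 to 0.976), and the zone from 40 to 60% held 454, 1.10 per Mb (1.00 to 1.21). In steps of 5% of the span, the density was lowest from 45 to 50%, at 0.700 per Mb with 72 sites, and from 30 to 35%, at 0.778 per Mb with 80 sites. The step from 40 to 45%, between these, held 128 sites or 1.25 per Mb. The step from 55 to 60% had 1.27 per Mb and the outer step that followed, from 60 to 65%, had 1.18 per Mb. At that border the limit of 60% did not coincide with a change in density. At the other border the step from 20 to 25% had 0.992 per Mb, against 1.31 per Mb from 15 to 20%.

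Single chromosomes carried much of this unevenness. Chromosome 9 had 32 of its 73 interior sites (43.8%) from 40 to 45% of its span and only 2 from 30 to 35%. Chromosome 10 had no interior site from 30 to 35% and 1 each in the steps from 20 to 25% and 25 to 30%. Chromosome 7 had 1 from 30 to 35% and 1 from 35 to 40%. Chromosome 5 had 22 from 40 to 45%, next to 3 from 45 to 50%. Chromosome 2 had 19 and 5 in the same steps, and 35 from 50 to 55%.

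The interiors of chromosomes 6 and 2 carried the most sites for their length. Chromosome 6 had 133 in 67.7 Mb, or 1.97 per Mb (1.65 to 2.33), and chromosome 2 had 172 in 95.0 Mb, or 1.81 per Mb (1.55 to 2.10). These intervals overlap, so the order of the 2 is not resolved. Chromosome 5 followed with 106 sites (1.22 per Mb, 0.998 to 1.47) and chromosome 9 with 73 (1.16 per Mb, 0.913 to 1.46). Chromosome 8 had 62 sites (0.888 per Mb), chromosome 10 had 46 (0.769), chromosome 3 had 63 (0.679) and chromosome 1 had 77 (0.640). Chromosome 4, with 50 sites (0.517 per Mb, 0.384 to 0.681), and chromosome 7, with 34 (0.481 per Mb, 0.333 to 0.673), were the sparsest. Chromosomes 2, 6 and 9 together held 46.3% of the interior sites in 27.4% of the interior length.

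**Figure D2:**
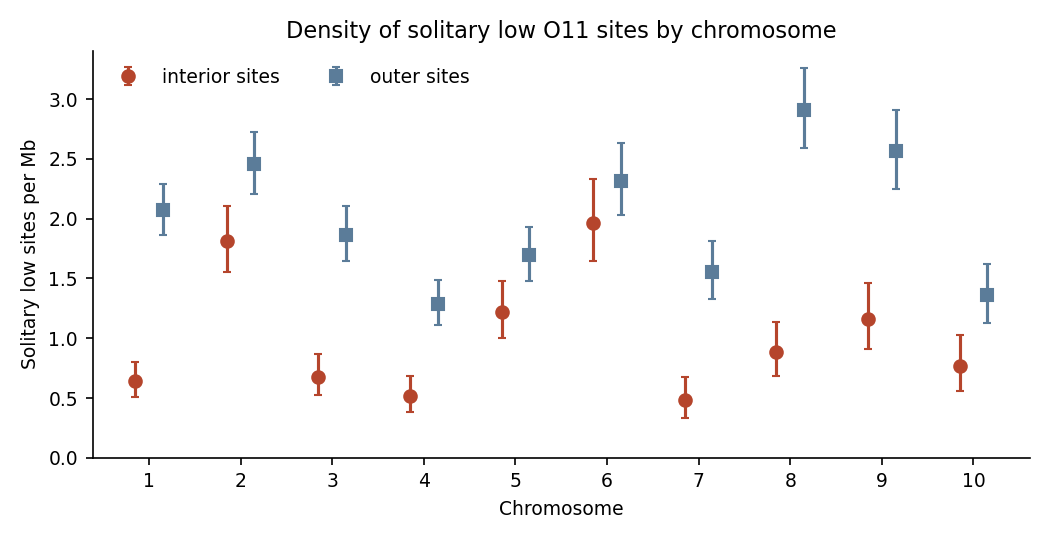
Solitary low sites per Mb on each chromosome, for interior sites (red circles) and outer sites (blue squares), with exact Poisson 95% intervals. The interior value is the lower one on all 10 chromosomes, and the intervals of the pair overlap on chromosome 6 only.

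On all 10 chromosomes the interior was sparser in these sites than the outer parts, by very different amounts. Interior density over outer density gave a ratio of 0.305 for chromosome 8 (0.228 to 0.402), 0.309 for chromosome 1 (0.238 to 0.396) and 0.309 for chromosome 7 (0.207 to 0.449). Chromosomes 3 and 4 had ratios of 0.363 and 0.401, and chromosomes 9 and 10 had 0.454 and 0.566. The ratio reached 0.719 on chromosome 5 (0.565 to 0.911), 0.737 on chromosome 2 (0.611 to 0.887) and 0.849 on chromosome 6 (0.681 to 1.05). The interval of chromosome 6 was the one of the 10 that included 1. The interior was picked as sparse in this list, so ratios below 1 are in part built into the choice and are no test. Chromosome 8 had the densest outer parts of all, 2.91 sites per Mb, beside an interior of 0.888 per Mb.

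Stretches without any summit, of whatever pileup, took up more of the interior than of the outer parts. Stretches of at least 1 Mb made up 55.1% of the interior length (453.0 Mb), against 22.4% of the outer length between the first and last summits (275.2 Mb). For stretches of at least 2 Mb the shares were 28.8% of the interior and 6.29% of the outer parts. The median distance between neighbouring summits was 146.9 kb in the interior (quartiles 26.9 and 479.7 kb, 1970 distances), against 62.7 kb outside it (7.68 and 208.8 kb, 6967 distances). Of the interior distances 225 reached 1 Mb and 72 reached 2 Mb, against 177 and 28 of the outer ones.

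**Figure D3:**
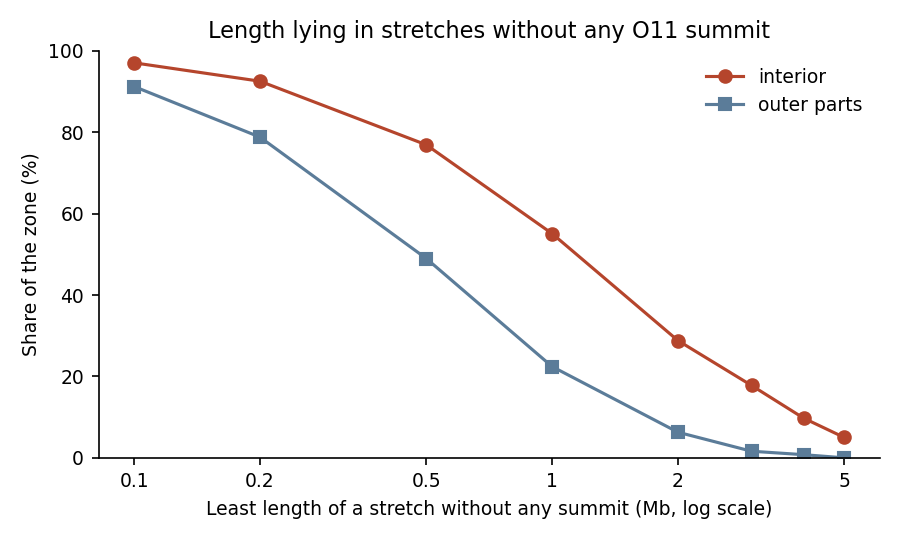
Share of the interior (red) and of the outer parts (blue) lying in stretches without any O11 summit, against the least length of stretch counted, in Mb on a log scale. At 1 Mb the shares are 55.1% of the interior and 22.4% of the outer parts.

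The longest empty stretch of the interiors lay on chromosome 1 between the summits at 129238212 and 135720175, a distance of 6.48 Mb. A site with a pileup of 33 reads bounded it on the left and an interior site with a pileup of 10 reads on the right. The next, also on chromosome 1, ran from an interior site at 106850609 (pileup 16) over 6.16 Mb to a summit at 113011828 (pileup 23). The stretch after these in length lay on chromosome 7 between 2 interior sites, at 66814208 (pileup 15) and 72725837 (pileup 13), 5.91 Mb apart. In the outer parts the longest empty stretch was 4.86 Mb, on chromosome 6 between 11432884 and 16291098.

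How much of the interior was empty varied with the chromosome. Stretches of at least 1 Mb covered 75.1% of the interior of chromosome 7, against 27.4% of its outer parts. On chromosome 9 they covered 66.6% of the interior, against 7.35% of the outer parts, although its interior was not among the sparsest in low sites. The lowest share was 33.5%, on chromosome 6, against 23.5% of its outer parts. Interior sites formed 207 of the 450 ends (46.0%) of the 225 stretches of at least 1 Mb. They made up 41.2% of all 1980 interior peaks, so nothing particular to them is read from that share. Of the 816 sites 176 stood at such an end. Those 176 had a median pileup of 14 reads and a median length of 295.5 bp, against 12 reads and 305 bp for the other 640. These medians have no interval and are pooled over chromosomes, so the differences are not separated from chromosome.

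An interior site was typically 100.5 kb from the nearest other summit (median, order-statistic interval 85.6 to 115.9 kb), against 62.4 kb for an outer site (58.9 to 66.5 kb). The quartiles were 34.3 and 282.1 kb for interior sites, against 28.5 and 140.7 kb for outer sites. The nearest summit was over 1 Mb away for 32 interior sites (3.92%), against 9 outer sites (0.366%). The kind of the nearest neighbour was much alike in both. It was another solitary low site for 434 interior sites (53.2%, 49.8 to 56.6%), against 1323 outer sites (53.8%, 51.8 to 55.7%). It was a solitary site with a pileup of 20 or more for 27.8% of interior sites and 24.6% of outer sites, and a member of a pair or longer run for 19.0% of interior sites and 21.6% of outer sites.

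The direction of this difference varied with the chromosome. The median nearest distance of interior sites was 37.4 kb on chromosome 2 and 37.5 kb on chromosome 9, shorter than for the outer sites of the same chromosomes (54.1 kb and 55.3 kb). On chromosome 5 it was 91.0 kb, against 99.9 kb for outer sites. On each of the other 7 chromosomes the interior distance was the longer one, up to 308.2 kb on chromosome 4, against 119.7 kb for its outer sites. Chromosome 1 had 232.8 kb, against 66.2 kb for outer sites.

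The 3 most isolated interior sites lay on chromosomes 7, 5 and 8. The chromosome 7 site, from 66814082 to 66814410, was 4.49 Mb from the next summit on the left and 5.91 Mb from the next on the right. It had a pileup of 15 reads (exact Poisson interval 8.40 to 24.7), a length of 329 bp and a fold of 6.29. Only 5 summits, 2 of them interior sites, lay in the 18.4 Mb of chromosome 7 between 54348803 and 72725837. The chromosome 5 site, from 105006136 to 105006477, had empty stretches of 2.70 and 3.81 Mb on its sides. Its pileup was 14 reads (7.65 to 23.5) over a background of 3.97, and its fold of 3.02 was the lowest of the 816. The chromosome 8 site, from 52844048 to 52844310, stood between stretches of 3.47 and 2.68 Mb, with a pileup of 14 reads, a length of 263 bp and a fold of 6.00.

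Some parts of the interior were crowded with such sites all the same. Of the 155 windows of 5 Mb that fell whole inside an interior, the median held 3 interior sites (quartiles 2 and 6), 8 held none, and 20 held at least 10. The fullest was 65 to 70 Mb on chromosome 9, with 30 interior sites among 77 peaks. Next came 85 to 90 Mb on chromosome 2 with 28 among 36 peaks, 120 to 125 Mb on chromosome 2 with 22 among 43, and 55 to 60 Mb on chromosome 6 with 21 among 29. The makeup of these windows differed. On chromosome 9 the window also held 44 peaks in pairs or runs, whereas the chromosome 2 window from 85 Mb held 5 and the chromosome 6 window held 5.

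Pooled over chromosomes, interior sites more often had a pileup of 10 reads or less than outer sites, while median pileups by chromosome differed in both directions. Both groups had a median pileup of 13 reads, with quartiles of 10 and 16 for interior sites, against 11 and 16 for outer sites. A pileup of 10 reads or less was found at 223 interior sites (27.3%, 24.4 to 30.5%), against 528 outer sites (21.5%, 19.9 to 23.1%). The commonest pileup was 10 reads among interior sites (102 sites) and 11 reads among outer sites (276 sites). The median pileup of interior sites was higher than that of outer sites on 5 chromosomes (1, 3, 4, 8 and 10), equal on chromosome 6 and lower on 4 (2, 5, 7 and 9). Without chromosomes 2 and 9 it was 14 reads in interior sites, against 13 in outer sites. By chromosome, interior medians ran from 11 reads on chromosomes 2 and 9 to 16 reads on chromosome 1. Outer sites ran from 12 reads, on chromosomes 2, 6 and 8, to 15 reads on chromosome 5.

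Fold enrichment, the pileup plus 1 over the mutant background plus 1, had a median of 5.35 in interior sites (quartiles 4.67 and 6.17), against 5.46 in outer sites (4.84 and 6.51). A fold of 5 or more was found at 479 interior sites (58.7%, 55.3 to 62.0%), against 1628 outer sites (66.2%, 64.3 to 68.0%). Of all chromosomal peaks 74.1% reached it. A fold of 7 or more was found at 93 interior sites (11.4%), against 407 outer sites (16.5%) and 31.7% of all chromosomal peaks. The limit on pileup caps the fold, so nothing is read from the difference to all peaks. The −log10 q of the peak caller had a median of 5.35 in interior sites (quartiles 3.95 and 7.01), against 5.64 in outer sites (4.41 and 7.70). It was under 3 at 80 interior sites (9.80%, 7.95 to 12.0%), against 178 outer sites (7.24%, 6.28 to 8.33%).

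Interior sites were also slightly shorter. Their median length was 302 bp (order-statistic interval 297 to 310 bp, quartiles 259 and 370 bp), against 316 bp for outer sites (312 to 322 bp, quartiles 266 and 404 bp). Lengths of at least 500 bp were found at 64 interior sites (7.84%, 6.19 to 9.89%), against 306 outer sites (12.4%, 11.2 to 13.8%). The shortest length in the list, 251 bp, was that of 162 interior sites (19.9%, 17.3 to 22.7%), against 416 outer sites (16.9%, 15.5 to 18.4%). The median was lower in interior sites on 7 of the 10 chromosomes, the exceptions being chromosomes 5, 7 and 10. Summits sat near the middle of the peak in both groups, at a median of 48.0% of the length in interior sites and 48.5% in outer sites.

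**Figure D4:**
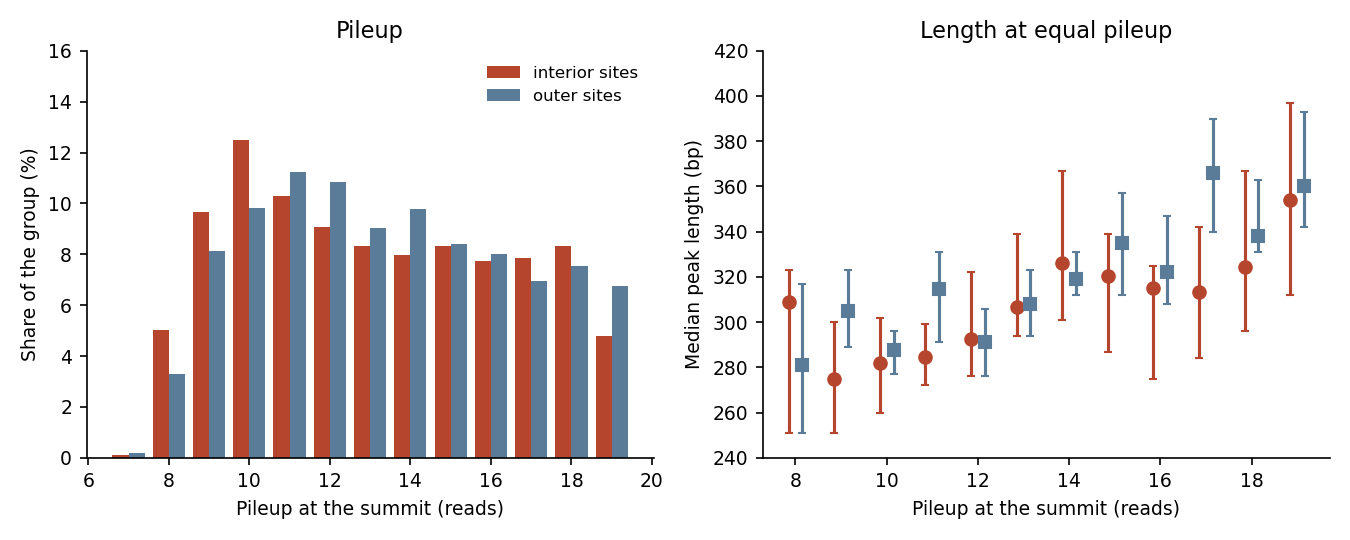
Left, share of interior sites (red) and outer sites (blue) at each pileup, in reads. Right, median peak length in bp at each pileup from 8 to 19 reads, with order-statistic 95% intervals on an axis that does not start at 0; the interior median is lower at 9 of the 13 pileup values, counting 7 reads, which holds 1 interior site and is not drawn.

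Length went weakly with pileup across interior sites (Spearman's rho 0.23, Pearson's r 0.21, 816 sites), as it did across outer sites (rho 0.25, r 0.20, 2460 sites). Both measures come from the same reads, so no p-value is given. At equal pileup the interior median was lower at 9 of 13 pileup values, and the mean difference, weighted by the number of interior sites at each value, was -11.9 bp. The widest gap among values with at least 20 interior sites was at 17 reads, where interior sites had a median of 313.5 bp, against 366 bp for outer sites. At 8 reads the order was turned round, with 309 bp for interior sites and 281 bp for outer sites. The intervals of the 2 groups overlapped at each pileup value.

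The 3 longest interior sites had the same pileup of 15 reads, the same fold of 7.78 and a background at its lower limit. The first lay on chromosome 9 from 92092180 to 92093087 (908 bp), the next on chromosome 8 from 39475808 to 39476694 (887 bp), and the last on chromosome 2 from 88456813 to 88457691 (879 bp). They were long for their pileup, since the median length at 15 reads was 320.5 bp. The largest fold, 9.72, was shared by 4 interior sites with 19 reads (11.4 to 29.7) over the lowest background. One lay on chromosome 1, from 93919955 to 93920283, and the others on chromosome 2 from 61920031 to 61920389, chromosome 6 from 74904445 to 74904942 and chromosome 9 from 32912567 to 32912928. A fold of 9.72 is the largest that a pileup under 20 can give over that background, so the tie is set by the limit of the choice.

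The background of each interior site above a lower limit could be read back as whole control reads. The control was taken from the labels as the mutant library. The implied background had a lower limit of 1.06 reads. Above it, all 496 interior sites, like 5809 of the 5823 chromosomal peaks above the limit (99.8%), lay within 0.001 of a whole number of steps of 0.879, 0.221 or 0.0221 reads. These steps were set in the ratio of windows of 251 bp, 1 kb and 10 kb, each step being 1 mutant read in that window. Their common size was fitted to the same background values, so the agreement is not an independent check. MACS2 takes the highest of such local estimates. A multiple of 10 reads in 10 kb cannot be told from whole reads in 1 kb and was counted with 1 kb. A site at the lower limit had at most 1 mutant read in 251 bp, at most 4 in 1 kb and at most 47 in 10 kb.

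Pooled over chromosomes, the shares of interior and outer sites by source of background lay within 3 percentage points of each other. The lower limit applied at 320 interior sites (39.2%, 35.9 to 42.6%), against 1025 outer sites (41.7%, 39.7 to 43.6%) and 35.1% of all chromosomal peaks. The difference of -2.45 percentage points (Newcombe interval -6.28 to 1.45) became -5.46 points (-9.48 to -1.33) with 20 kb as the solitary distance and -8.86 points without chromosome 2. The window of 251 bp set it at 137 interior sites (16.8%), against 431 outer sites (17.5%), most often through 2 mutant reads. The 1 kb window set it at 160 interior sites (19.6%), against 477 outer sites (19.4%), with a median of 8 mutant reads in both. The 10 kb window set it at 199 interior sites (24.4%, 21.6 to 27.4%), against 527 outer sites (21.4%, 19.8 to 23.1%). There the median was 81 mutant reads per 10 kb around interior sites, against 73 around outer sites.

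The share at the lower limit falls as pileup rises, so it was also set side by side at equal pileup. It was lower in interior sites at 11 of 13 pileup values, counting 7 reads with its 1 interior site, and by a weighted mean of 4.41 percentage points. Chromosomes were pooled here, and at each pileup value the intervals of the 2 groups overlapped. At 8 reads the limit applied at 92.7% of 41 interior sites, against 81.5% of 81 outer sites. The widest gap among values with at least 20 interior sites was at 16 reads. There the limit applied at 6.35% of 63 interior sites (2.50 to 15.2%), against 17.8% of 197 outer sites (13.1 to 23.7%). Median background and median fold differed most at 17 reads. The background there was 2.29 in interior sites, against 1.76 in outer sites, and the fold 5.46, against 6.51. At 8 to 11 reads and at 15 reads both medians were equal in interior and outer sites.

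**Figure D5:**
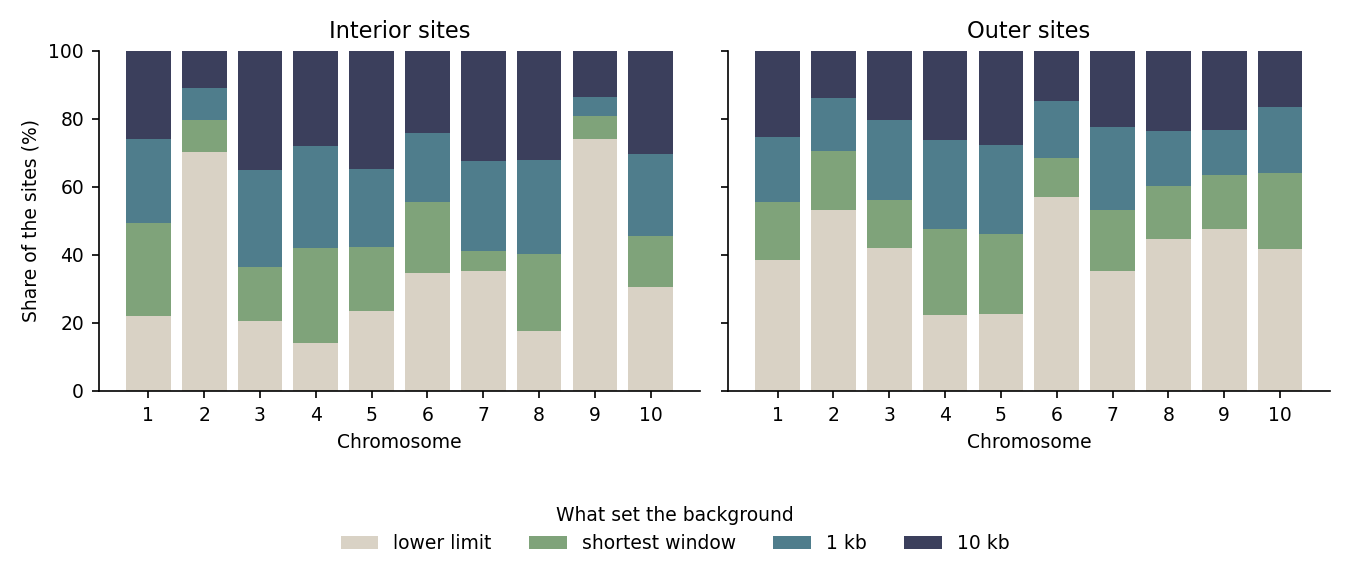
Share of interior sites (left) and outer sites (right) on each chromosome whose background was at the lower limit or was set by mutant reads in the shortest window (251 bp), in 1 kb or in 10 kb. Interior sites of chromosomes 2 and 9 were at the limit in 70.3% and 74.0% of cases, those of the other chromosomes in 35.3% or fewer.

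Behind these like totals the chromosomes went opposite ways. On chromosome 9 the limit applied at 54 of 73 interior sites (74.0%, 62.9 to 82.7%), against 47.7% of outer sites (41.5 to 54.0%). On chromosome 2 it applied at 121 of 172 interior sites (70.3%, 63.1 to 76.7%), against 53.1% of outer sites (47.9 to 58.3%). On chromosome 6 it was the reverse, 46 of 133 interior sites (34.6%, 27.0 to 43.0%), against 57.0% of outer sites (50.6 to 63.2%). Chromosome 8 had 17.7% of interior sites at the limit (10.2 to 29.0%), against 44.6% of outer sites (39.1 to 50.2%). Chromosome 1 had 22.1%, against 38.5% of outer sites, and chromosome 3 had 20.6%, against 41.9%. Chromosomes 4, 5, 7 and 10 had intervals that overlapped between interior and outer sites. The 245 interior sites of chromosomes 2 and 9 had 71.4% at the limit, and the 571 on the other chromosomes had 25.4% (22.0 to 29.1%), against 38.7% of the outer sites of those 8 chromosomes (36.6 to 41.0%).

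Crowded windows differed widely in the share at the limit, also within chromosomes 2 and 6. In the chromosome 9 window from 65 to 70 Mb, 29 of the 30 interior sites were at the limit, with pileups of 8 to 17 reads and a median of 10. In the chromosome 2 window from 120 to 125 Mb, 17 of 22 were at the limit, with a median pileup of 9. All 11 interior sites from 55 to 60 Mb on chromosome 2 were at the limit, with pileups of 8 to 14. On chromosome 2 the window from 125 to 130 Mb had 4 of 10 at the limit. The chromosome 6 window from 55 to 60 Mb had 3 of 21 at the limit and a median pileup of 11. Other crowded windows of chromosome 6, from 85 and 90 Mb, had 9 of 16 and 9 of 18. Those from 70, 80 and 95 Mb had 4 of 10, 6 of 11 and 6 of 13. From 50 to 55 Mb on chromosome 5, none of the 11 interior sites was at the limit, their median pileup was 17 reads and their median length 434 bp. Windows with at least 10 interior sites had 163 of 290 sites at the limit (56.2%), and the other whole windows had 122 of 461 (26.5%). Many of these crowded windows lay on chromosomes 2 and 9, where 71.4% of all interior sites were at the limit. The pooled shares therefore do not separate crowding from chromosome. The part that the mutant background plays in the number of sites called was not tested.

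Interior sites at the limit and above it differed in strength and spacing. The 320 interior sites at the limit had a median pileup of 10 reads, a median length of 293 bp and a nearest summit at a median of 52.3 kb. The 199 with a background set over 10 kb had a median pileup of 15 reads, a median length of 319 bp and a nearest summit at 153.8 kb. A higher background asks for a higher pileup, so the difference in pileup is built in. Chromosomes 2 and 9 held 175 of the 320 sites at the limit. All interior sites of these chromosomes had a nearest summit at a median of 37.5 kb, against 150.3 kb on the other chromosomes. The difference in spacing is therefore not separated from chromosome. Outer sites at the limit had a nearest summit at a median of 50.8 kb, like interior ones, whereas outer sites with a background set over 10 kb had 70.4 kb.

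The limits of the choice cut through sites that were much alike. The 39 interior sites with 19 reads had a median length of 354 bp, a median background of 2.18 and a median fold of 6.28. The 36 solitary peaks of the interior with 20 reads, just outside the limit, had 367.5 bp, 2.76 and 5.59. The interior site with the closest neighbour, at 75544936 on chromosome 9, was 10.042 kb from it and had 12 reads. The first one left out, at 82151512 on chromosome 5, had a neighbour at 9.836 kb and 8 reads. In position, the sites on either side of 20% lay at 20.1% (9 reads, 403 bp) on chromosome 5 and at 19.95% (13 reads, 599 bp) on chromosome 2. Those on either side of 60% lay at 59.98% (10 reads, 309 bp) on chromosome 2 and at 60.02% (9 reads, 251 bp) on chromosome 9.

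The median length of the solitary low sites, 302 bp, was below that of each other class of interior peak. Length went weakly with pileup, so the difference to peaks of 20 reads or more can be in part built into the rule. Medians of the other classes are given without intervals. The 546 solitary peaks of the interior with a pileup of 20 or more had a median length of 389.5 bp, a median fold of 7.04 and 4.21% of them at the limit of the background. The 441 interior peaks under 20 reads that had a neighbour within 10 kb had a median length of 312 bp, a median fold of 5.35 and 55.1% at the limit. The 177 with 20 reads or more and such a neighbour had a median length of 449 bp, a median fold of 8.70 and 13.6% at the limit.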

How the data were processed

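Chromatin immunoprecipitation sequencing with anti-O11 gave 2 libraries, 1 wild type and 1 o11 mutant. The authors deposited 1 list of peaks and the matching summits. The submitters' processing notes name Bowtie2 and, with version 2.0.10, MACS2 but give no settings, and each peak name carries v3 and q0.01. Per the file headers, the values of a peak are its pileup, which is a coverage signal, its fold enrichment and the −log10 of its p-value and q-value. Coordinates are as deposited, counted from 1. No file gives total reads.

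The background was solved from the deposited pileup and fold as (pileup + 1) / fold − 1, and the Poisson tail over it gave the deposited −log10 p to within 0.000209. The lower limit was taken with a tolerance of 0.001. Densities carry exact Poisson intervals, ratios exact conditional intervals, shares Wilson intervals, differences of shares Newcombe intervals and medians order-statistic intervals. These cover counting error only, since reads are not independent molecules. Python 3.11.15, numpy 2.4.6, pandas 2.3.3 and scipy 1.17.1 were used. The rule for solitary sites and the reading of whole mutant reads were tested on simulated data.

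The sites named are the 3 longest, the 3 with the largest fold (4 by a tie), the 3 most isolated, the lowest fold, the 3 longest empty stretches and those next to each limit. The windows, the longest outer stretch and the wider chromosome 7 stretch were chosen after their values were seen. The sites, groups and limits were chosen with earlier results of these data known. Alternatives changed the distance, the pileup limit, the zone and the caller's threshold.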

Additional observations from a re-analysis of the deposited data

How the results depend on the processing

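The density ratio of 0.498 stayed below 1 under each alternative run. Each run used the same list and much the same sparse zone, so this is in part built into the choice. The length difference of -14 bp stayed negative (-21 to -8 bp under the planned ones). Its interval reached past 0 with a pileup under 15 (-8 bp, -16.8 to 0.846) and without chromosome 2 (-9 bp, -19.1 to 1.12). The number of sites, 816, ranged from 229 to 1072. With a pileup under 15 there were 514 sites and the median nearest distance was 72.1 kb in place of 100.5 kb. It was 79.0 kb with 5 kb and 132.1 kb with 20 kb as the distance that makes a site solitary. An interior from 25% to 55% had 58.5% of its length in empty stretches of at least 1 Mb, in place of 55.1%. A list cut at its median −log10 q of 7.61 left 229 sites, a density ratio of 0.366, a nearest distance of 224.0 kb, 75.1% of the interior in empty stretches, and a difference in the share at the lower limit of the background of -8.46 percentage points in place of -2.45 (-6.28 to 1.45). A list of only peaks with a fold of at least 5 gave 543 sites, a ratio of 0.443, 117.3 kb and 65.8%. Of the 816 sites 479 had such a fold, so some of the 543 stood alone only once neighbours were dropped. Fewer peaks by construction lengthen distances and empty stretches. The interval of the difference at the lower limit included 0 in the report. It lay below 0 with 20 kb (-5.46, -9.48 to -1.33), an interior from 25% to 55% (-4.67, -8.93 to -0.262), a pileup under 25 (-4.23, -7.49 to -0.871) and the median −log10 q (-15.5 to -1.24). These intervals cover counting error only, treat sites as independent and are not a test. Each chromosome was also left out in turn, an alternative added after seeing the data. Without chromosome 2 the ratio was 0.458, the nearest distance 135.4 kb and the difference at the limit -8.86 points (-12.9 to -4.65), and without chromosome 9 it was -5.21 points (-9.16 to -1.15). Without chromosome 6 that difference turned round, to 0.0722 points (-4.08 to 4.30). The lowest pileup was 7 reads, and what greater depth would add was not tested. No paired analysis was possible because there was a single library of either genotype.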
